A study of Mus musculus with 120 samples.

Results

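Sox1, Sox3, Sox4, Sox11, Pax6, Pax3, Nes, Prom1 and Wt1 were followed through 20 induction experiments in mouse embryonic stem (mES) cells. A member was any probe set that the array annotation assigns to exactly 1 of these 9 symbols. There were 31 such probe sets among the 45101 of the Mouse430_2 array and 22 among the 22690 of the smaller Mouse430A_2 array, and the 9 genes stand among 18194 genes named by 1 symbol on the larger array. Each experiment induced a single gene of human chromosome 21 or its mouse counterpart. The measured quantity was the difference between the induced and the uninduced state of the same clone in log2 units, so that a difference of 1 is a signal 2-fold higher in the induced state.

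All cells were clones of the EB3 line, a mES line in which the introduced gene sits at the ROSA26 locus under a tetracycline (Tc) repressible promoter (Tet-off). They were grown on gelatin in serum with LIF, the cytokine that keeps mES cells undifferentiated. Every clone carried only the tagged coding sequence of its gene, which Tc represses and its withdrawal turns on, with a mild leak in the presence of Tc noted by the study for Pdxk. The induced genes were Bach1, Dscr1, Erg, Ets2, Gabpa, Nrip1, Olig1, Pknox1, RIKEN-1810007M14, Dyrk1a, Snf1lk, Pfkl, Olig2, Zfp295 and Runx1, profiled at 24 hours by the labels, then Hunk, Ripk4 and Sim2 at 39 hours, and Aire and Pdxk at 48 hours. For Dyrk1a, Snf1lk and Zfp295 the human sequence was used. Each experiment had 3 clones, profiled with Tc and again after its withdrawal, which gave 6 arrays per experiment and 120 in all. Runx1 was run on the Mouse430A_2 array and the other 19 on the Mouse430_2 array. Induced cells were also washed and plated anew, and no clone without a transgene was profiled, so the effect of the transgene and that of the withdrawal procedure cannot be told apart within an experiment. By the clone names in the study's tables the Olig2 arrays include clones that are listed under Olig1, and Pfkl is listed at 39 hours.

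The 9 genes are known as markers or regulators of progenitor cells. Sox1 and Sox3 belong to the SoxB1 group of high mobility group factors, which, with Sox2, hold neural progenitors in an undifferentiated state, while the SoxC factors Sox4 and Sox11 act as progenitors start to become neurons. Pax6 and Pax3 are paired box factors that pattern the neural tube along its dorsoventral axis, and Pax3 also marks the neural crest and early muscle. Nes encodes nestin, the intermediate filament of neural progenitors, Prom1 encodes the membrane protein prominin 1 (CD133), and Wt1 is a zinc finger factor best known from the developing kidney, gonad and mesothelium.

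Promoter windows of 300 bases, from 250 before to 50 after an annotated start (RefSeq, build GRCm38.p6), were available for 6 of the 9 genes, namely Sox1, Sox4, Sox11, Pax6, Nes and Prom1. Those of Sox11, Sox4, Prom1, Pax6 and Nes are shown, since these genes passed the test in more than 1 experiment, with rises and falls for Sox11, Sox4 and Prom1. Capitals mark every match, on either strand, to 5 short motifs, which are the GC box GGGCGG, the box motif CCAAT, the nuclear receptor motif AGGTCA, the core of the RUNX motif TGTGGT and, as an ETS type core, CAGGAA. Where a gene has several windows, the first upstream one is given.
Sox11 (chr12:27342669-27342968, minus strand): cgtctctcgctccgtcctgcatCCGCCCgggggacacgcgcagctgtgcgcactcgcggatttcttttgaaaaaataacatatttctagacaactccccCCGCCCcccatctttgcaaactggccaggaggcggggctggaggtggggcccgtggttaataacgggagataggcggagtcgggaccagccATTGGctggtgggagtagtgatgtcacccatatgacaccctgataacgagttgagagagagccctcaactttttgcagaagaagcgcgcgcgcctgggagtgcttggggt
Sox4 (chr13:28953650-28953949, minus strand): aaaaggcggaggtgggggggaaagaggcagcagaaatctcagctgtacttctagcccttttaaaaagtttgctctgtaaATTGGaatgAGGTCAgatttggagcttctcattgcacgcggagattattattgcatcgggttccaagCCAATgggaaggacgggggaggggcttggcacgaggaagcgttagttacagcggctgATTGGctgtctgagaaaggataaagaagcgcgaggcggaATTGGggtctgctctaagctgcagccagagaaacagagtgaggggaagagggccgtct
Prom1 (chr5:44101687-44101986, minus strand): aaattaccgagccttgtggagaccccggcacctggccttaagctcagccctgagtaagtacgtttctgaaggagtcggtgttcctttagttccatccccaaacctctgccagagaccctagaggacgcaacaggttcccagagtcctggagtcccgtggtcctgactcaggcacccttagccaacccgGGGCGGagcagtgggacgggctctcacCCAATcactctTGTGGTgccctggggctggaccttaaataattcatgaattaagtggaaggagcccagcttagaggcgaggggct
Pax6 (chr2:105668646-105668945, plus strand): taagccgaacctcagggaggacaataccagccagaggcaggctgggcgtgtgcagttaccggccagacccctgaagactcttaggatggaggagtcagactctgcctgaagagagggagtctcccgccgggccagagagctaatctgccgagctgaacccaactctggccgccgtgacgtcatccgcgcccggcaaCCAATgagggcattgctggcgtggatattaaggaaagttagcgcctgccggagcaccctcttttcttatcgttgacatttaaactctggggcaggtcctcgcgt
Nes (chr3:87970843-87971142, plus strand): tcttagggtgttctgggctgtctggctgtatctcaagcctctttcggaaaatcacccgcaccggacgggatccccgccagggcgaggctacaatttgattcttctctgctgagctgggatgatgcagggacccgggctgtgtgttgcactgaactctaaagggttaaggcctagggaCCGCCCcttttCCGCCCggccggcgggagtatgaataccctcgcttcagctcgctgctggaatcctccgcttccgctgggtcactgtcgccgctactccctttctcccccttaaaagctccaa
No 2 of the capital runs overlap in these windows. The Sox11 window holds GGGCGG 2 times and CCAAT 1 time, all on the strand opposite to the gene. In the Sox4 window CCAAT is found 4 times, 3 of them on the opposite strand, and AGGTCA 1 time. Prom1 has 1 match to GGGCGG, 1 to CCAAT and 1 to TGTGGT, Pax6 has 1 match to CCAAT, and Nes has 2 matches to GGGCGG on the opposite strand. Of all 32851 promoter windows 35.7% hold GGGCGG, 37.4% CCAAT, 16.3% AGGTCA, 16.8% TGTGGT and 30.6% CAGGAA, so each of these matches is common. A match is a description of the letters and shows no binding.

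On the arrays as a whole, the markers of mES cells were high: the probe sets of Pou5f1, Nanog, Sox2, Zfp42 and Utf1 lay at or above the 93.0 percentile of every array. Array medians ran from 4.89 to 5.68 on the Mouse430_2 and from 7.11 to 7.19 on the Mouse430A_2, and experiments were normalized apart, so all tests stayed within an experiment or used differences. The introduced sequence could be seen in the array for Runx1, where 2 of its probe sets were 1.13 and 1.39 higher after induction, while its other 3 did not pass. The probe sets of the other 6 experiments with a called member may lie outside the introduced coding sequence, and none passed the test, so they did not check the induction: they lay between -0.59 and 0.00 in Nrip1, at 0.03 and 0.04 in Erg, at -0.23 in Aire, at -0.09 in Olig2, at 0.02 and -0.05 in Sim2 and between -0.04 and 0.67 in Pdxk (smallest adjusted p there 0.0948). The study itself measured induction by q-PCR in the clones of every gene. Its western blots of the tagged protein included Erg, Nrip1, Runx1 and Pdxk, and it reports a band for all genes tested.

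Of 611 member values tested, 38 passed (limma with the clone as a block, Benjamini-Hochberg adjusted p under 0.05), 26 of them higher and 12 lower after induction. They came from 7 experiments and from 17 probe sets of 8 genes. The experiments with the most were Erg, with 10 of 31 member probe sets higher against 5.71% of all probe sets called higher, and Runx1, with 7 of 22 lower against 7.65% and 2 of 22 higher against 8.51%. In Nrip1 5 of 31 were higher, where 0.113% of all probe sets were called higher. Olig2 had 3 higher against 0.825% and 2 lower against 0.938%, and Aire had 4 higher against 2.45% and 3 lower against 1.48%. A single member was higher in Pdxk, against 0.231%, and in Sim2, against 0.643%. Probe sets of 1 gene are not independent, and Sox4 has 8 and Sox11 has 6 of the 31. By gene, of the 9, 5 were called in Erg, 6 in Runx1, 4 in Nrip1, 3 in Olig2, 5 in Aire and 1 each in Pdxk and Sim2. The share of all genes called at any of their probe sets was not worked out. The other 13 experiments, which the study calls silent, had no member called by limma. The share of all probe sets called there was 0% in 10 of them, 0.00222% in Bach1, 0.00665% in Hunk and 0.0177% in Ripk4. Between 1 and 9 member probe sets had an unadjusted p under 0.05 in each silent experiment, with 9 of 31 (29.0%) in Ripk4 against 7.39% of all probe sets, 8 (25.8%) in Hunk against 9.44%, 5 (16.1%) in Dscr1 against 2.24% and 1 to 3 in the others against 2.49% to 14.8%. A Cyber-t kind of test, which regularizes the variance of the clone differences, called no member there. Over the members the median difference was highest in Nrip1 (0.32) and lowest in Runx1 (-0.19), while the median over all probe sets was between -0.03 and 0.01 in every experiment.

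**Figure D1:**
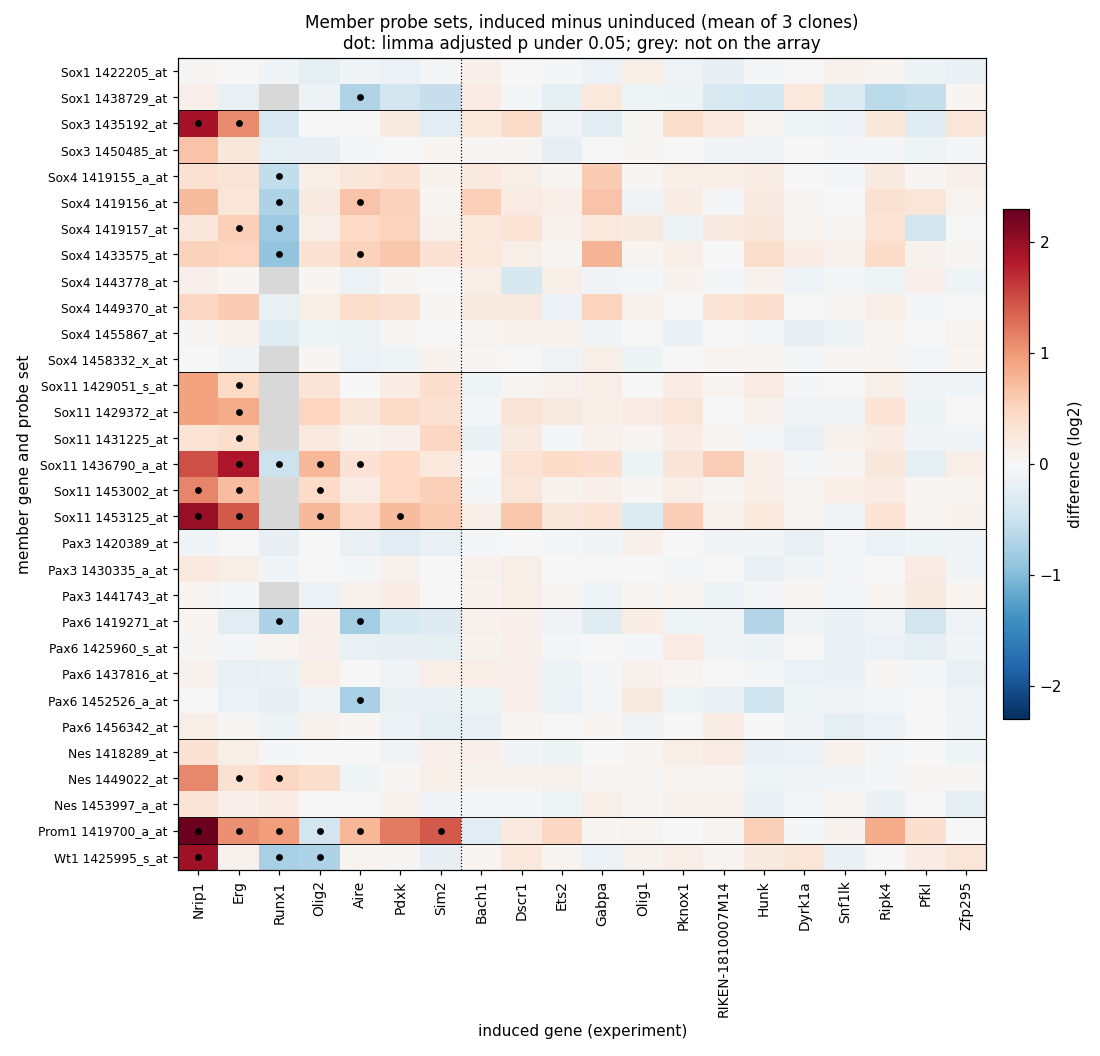
Mean difference (log2, colour) of each member probe set (vertical axis, grouped by gene) in each of the 20 experiments (horizontal axis), with a dot where the adjusted p was under 0.05 and grey where the array lacks the probe set. The strongest reds lie in the Nrip1 column for Prom1, Sox11, Wt1 and Sox3 and in the Erg column for Sox11. The Sox4 rows are blue in Runx1, and the columns right of the dotted line, the 13 silent experiments, hold no dot.

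Without the clone as a block 18 member values passed, 9 in Erg and 9 in Runx1, and none of those in Nrip1, Olig2, Aire, Pdxk or Sim2 (adjusted p from 0.0688 to 0.772), so the calls in these 5 experiments rest on the pairing of each clone with itself. Leaving out clone 1 gave 22, clone 2 gave 49 and clone 3 gave 23, and no called difference changed sign in any of these fits. The share of all probe sets called was not worked out beside these totals.

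Among the SoxB1 genes, Sox3 rose in Nrip1 and Erg. At 1435192_at the Nrip1 clones read 6.99, 6.20 and 5.74 uninduced and 8.69, 7.89 and 8.12 induced. All 3 induced arrays lay above all 3 uninduced arrays, as at 5.69% of all probe sets. The difference was 1.92 ± 0.15 (n = 3 clones, adjusted p = 0.0259), 3.79-fold. Here and below, ± on a difference is the limma standard error (SE), whose variance is drawn toward that of all probe sets. It is not the standard error of the 3 clone differences alone, which were 1.70, 1.69 and 2.38 here. In Erg the same probe set went from 7.09, 7.48 and 6.43 to 8.32, 8.20 and 7.76, by 1.09 ± 0.12 (adjusted p = 0.00134). The induced arrays were again all higher, as at 11.8% of all probe sets in Erg. In the other experiments Sox3 stood between -0.35 (Runx1, adjusted p = 0.051) and 0.41 (Dscr1). The second Sox3 probe set, 1450485_at, was 0.65 ± 0.14 higher in Nrip1 and 0.27 ± 0.08 higher in Erg, without passing in either (adjusted p = 0.15 and 0.0676). The call in Nrip1 was lost without clone 1 (adjusted p = 0.145) and without clone 3 (adjusted p = 0.0526), where the difference was 2.03 and 1.69.

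Sox1, the first SoxB1 gene to mark neural commitment, was called in 1 experiment, where it fell. Its probe set 1438729_at fell in Aire from 5.19, 6.15 and 5.06 to 4.86, 5.36 and 4.12, by 0.69 ± 0.11 (n = 3, adjusted p = 0.0184). Each clone fell, although the groups overlap because clone 2 started higher. This was the single Sox1 call in 39 values. The mean was below 0 in 14 of the 19 experiments that have the probe set, among them Ripk4 (-0.62), Pfkl (-0.55), Sim2 (-0.53), Pdxk (-0.42) and Hunk (-0.40), none of which passed. At 1422205_at the differences ran from -0.22 to 0.13.

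Sox11, of the SoxC group, was called in more experiments than any other Sox gene here, with 13 values higher in 5 experiments and 1 lower. In Erg all 6 of its probe sets rose. The strongest, 1436790_a_at, went from 7.0, 6.50 and 6.63 to 8.81, 8.48 and 8.44, a difference of 1.87 ± 0.08 (adjusted p = 2.97e-05), and the 3 clone differences lay within 1.81 and 1.97. At 1453125_at the Erg difference was 1.42 ± 0.12 (adjusted p = 0.000437). The other 4 rose by 0.40 to 0.85. In Nrip1 1453125_at rose from 5.75, 5.28 and 5.95 to 7.45, 7.91 and 7.64, which is 2.01 ± 0.19 or 4.02-fold (adjusted p = 0.0347). There 1453002_at rose by 1.11 ± 0.10 (adjusted p = 0.0323), a call lost whichever clone was left out (adjusted p = 0.157, 0.061 and 0.105). The highest uninduced array was below the lowest induced array at both. In Nrip1 every induced array was above every uninduced one at 13 of 31 member probe sets, against 5.69% of all probe sets. A further 3 Sox11 probe sets were among them but missed the threshold, with 1.49 ± 0.23 at 1436790_a_at (adjusted p = 0.0818), where clone 3 moved 0.76 and clone 2 moved 2.08.

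Sox11 was also higher after induction in the Olig2 experiment. Probe set 1436790_a_at read 7.19, 7.44 and 7.60 before and 8.26, 7.96 and 8.28 after, a gain of 0.76 ± 0.11 (adjusted p = 0.0218), and 1453125_at gained 0.75 ± 0.10 and 1453002_at 0.44 ± 0.07. The call at 1453002_at was lost whichever clone was left out (adjusted p = 0.170, 0.113 and 0.0673). In Pdxk the called probe set was 1453125_at, which rose from 6.44, 6.66 and 6.41 to 7.16, 7.36 and 7.20, by 0.74 ± 0.08 (adjusted p = 0.0206). In Aire it was 1436790_a_at, by 0.33 ± 0.07 (adjusted p = 0.0408), a gain smaller than the distance between its clones. That Aire call was lost whichever clone was left out (adjusted p = 0.083, 0.0882 and 0.203). In the Runx1 experiment, whose array carries 1 Sox11 probe set, the direction was down: 1436790_a_at went from 8.29, 8.04 and 8.48 to 7.92, 7.77 and 7.63, by -0.50 ± 0.12 (adjusted p = 0.0473), and the call was weak.

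Sox4, the other SoxC gene, was lower in Runx1 at 4 of its 6 probe sets on that array. The probe set of highest level, 1433575_at, went from 9.23, 9.18 and 9.31 to 8.44, 8.05 and 8.49. Every induced array was below every uninduced one, as at 18.4% of all probe sets. The difference was -0.92 ± 0.09 (adjusted p = 0.0023). The other 3 fell by 0.56 (1419155_a_at), 0.71 (1419156_at) and 0.83 (1419157_at). In Aire 1433575_at rose in each clone, from 9.90, 9.11 and 9.06 to 10.42, 9.72 and 9.53, by 0.54 ± 0.07 (adjusted p = 0.0104), and 1419156_at rose by 0.65 ± 0.07 (adjusted p = 0.00505). In Erg 1419157_at rose by 0.54 ± 0.09 (adjusted p = 0.00686). At 1433575_at the mean was above 0 in 19 of 20 experiments, with Runx1 the exception. The highest mean, 0.77 ± 0.23 in Gabpa, did not pass (adjusted p = 0.293), and there clone 2 moved by 0.05 while clones 1 and 3 moved by 1.19 and 1.08. Without clone 2, 4 Sox4 probe sets were called higher in Gabpa, with 1433575_at at 1.14 (adjusted p = 0.00203), where 2.57% of all probe sets were called higher. Leaving out the clone that moved least favours such calls, and no member was called in Gabpa without clone 1 or without clone 3. The 4 probe sets read the same gene. In the fit over all 114 arrays 3 Sox4 probe sets passed in Gabpa, 1419155_a_at, 1419156_at and 1433575_at (adjusted p from 0.000123 to 0.00921), against 4.72% of all probe sets called higher. That fit shares 1 estimate of the spread over all experiments, so the distance of clone 2 from the other clones weighs less in it.

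**Figure D2:**
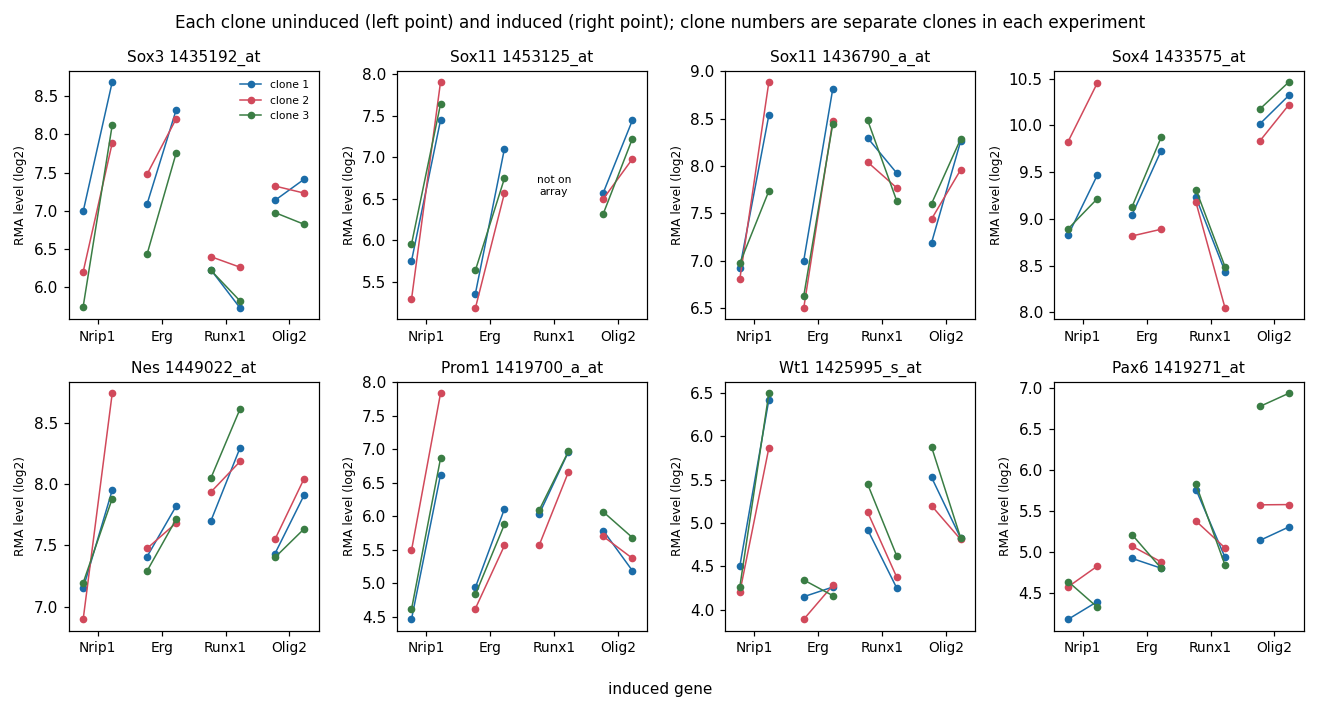
RMA level (log2, vertical axis) of 8 member probe sets in the Nrip1, Erg, Runx1 and Olig2 experiments, where each line joins a clone uninduced (left point) and induced (right point). All lines rise in Nrip1 and Erg for Sox3, Sox11 and Prom1, those of Sox4 fall in Runx1, and those of Wt1 rise in Nrip1 and fall in Runx1 and Olig2.

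The paired box genes were called lower or not at all. Pax6 fell in Aire at 2 probe sets: 1419271_at from 6.72, 6.20 and 6.42 to 6.04, 5.36 and 5.52, by 0.81 ± 0.08 (adjusted p = 0.00343), and 1452526_a_at by 0.75 ± 0.08 (adjusted p = 0.00413). At both, the induced arrays were all below the uninduced ones, as at 9.29% of all probe sets in Aire. In Runx1 1419271_at fell from 5.76, 5.38 and 5.83 to 4.93, 5.05 and 4.84, by 0.71 ± 0.13 (adjusted p = 0.0209). In Hunk the same probe set was -0.68 ± 0.08 in 3 similar clones and missed the threshold (adjusted p = 0.0924), and it passed there in the fit over all 114 arrays (adjusted p = 0.037), which called 0.0266% of all probe sets lower in Hunk. The mean of 1419271_at was below 0 in 15 of 20 experiments. The remaining 3 Pax6 probe sets stayed between -0.23 and 0.19. None of the 59 Pax3 values was called by limma, with 1 at an unadjusted p under 0.05 and none by the Cyber-t kind of test, and their differences ran from -0.24 to 0.23. The Pax3 probe set 1441743_at lay below the lower quartile of the arrays in all 19 experiments, as did Pax6 1452526_a_at in 13 of 20, so a fall at these would be hard to see.

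Nes was called higher at 1 of its 3 probe sets, 1449022_at. In Runx1 it rose from 7.70, 7.94 and 8.05 to 8.30, 8.18 and 8.61, by 0.47 ± 0.09 (adjusted p = 0.0218), and in Erg from 7.41, 7.48 and 7.29 to 7.82, 7.68 and 7.71, by 0.35 ± 0.08 (adjusted p = 0.0367). In Nrip1 the difference was 1.11 ± 0.22 and did not pass (adjusted p = 0.131): clone 2 went from 6.90 to 8.74, clone 1 from 7.15 to 7.95 and clone 3 from 7.19 to 7.88. Nes 1453997_a_at was below the lower quartile in all 20 experiments.

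Prom1 has 1 probe set, 1419700_a_at, and it passed in 6 experiments, higher in 5 and lower in 1. The gain was greatest in Nrip1, from 4.46, 5.49 and 4.61 to 6.62, 7.84 and 6.86. The clone differences were 2.16, 2.35 and 2.26, a mean of 2.25 ± 0.09 or 4.77-fold (adjusted p = 0.0059). In Sim2 it rose from 5.48, 4.98 and 5.65 to 6.49, 6.61 and 7.23, by 1.41 ± 0.15 (adjusted p = 0.0327). The call in Sim2 was lost without clone 2 (adjusted p = 0.223) and with uninduced clones 1 and 2 exchanged, the order in which the study names them (adjusted p = 0.0848). In Erg Prom1 rose from 4.94, 4.62 and 4.83 to 6.11, 5.56 and 5.88, by 1.05 ± 0.08 (adjusted p = 0.00032), and in Runx1 it rose from 6.03, 5.57 and 6.09 to 6.96, 6.66 and 6.97, by 0.96 ± 0.07 (adjusted p = 0.00105). In Aire it went from 5.90, 5.83 and 6.04 to 6.72, 6.42 and 6.90, by 0.76 ± 0.08 (adjusted p = 0.00488). The states did not overlap in any of these 5 experiments. The share of all probe sets with every induced array above every uninduced one was 5.69% in Nrip1, 8.19% in Sim2 and 11.8% in Erg. It was 16.8% in Runx1 and 8.54% in Aire. In Olig2 Prom1 went the opposite way: 5.78, 5.70 and 6.06 became 5.19, 5.37 and 5.68, a fall by 0.44 ± 0.08 (adjusted p = 0.0463). This call was lost whichever clone was left out (adjusted p = 0.217, 0.096 and 0.0998). Pdxk (1.19 ± 0.17, adjusted p = 0.0514) and Ripk4 (0.86 ± 0.10, adjusted p = 0.114) were higher in each of their 3 clones without passing. In the fit over all 114 arrays Prom1 passed in Ripk4 (0.86, adjusted p = 0.00131), where 0.364% of all probe sets were called higher, and in Pdxk (1.19, adjusted p = 8.4e-07).

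Wt1, also read by 1 probe set (1425995_s_at), passed in 3 experiments. In Nrip1 it rose from 4.50, 4.20 and 4.26 to 6.42, 5.87 and 6.50, by 1.94 ± 0.13 or 3.84-fold (adjusted p = 0.025). It fell in Runx1 from 4.92, 5.12 and 5.45 to 4.25, 4.37 and 4.62, by 0.75 ± 0.06 (adjusted p = 0.0017), and in Olig2 from 5.53, 5.20 and 5.88 to 4.83, 4.81 and 4.83, by 0.71 ± 0.12 (adjusted p = 0.0365). The 3 induced Olig2 arrays lay much closer together than the 3 uninduced ones, and the states did not overlap. In Olig2 the induced arrays were likewise all below at 6.06% of all probe sets. In the other 17 experiments the mean lay between -0.19 and 0.28. In Erg, where Sox3, Sox11 and Prom1 rose, Wt1 read 4.15, 3.89 and 4.34 before and 4.26, 4.28 and 4.16 after.

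**Figure D3:**
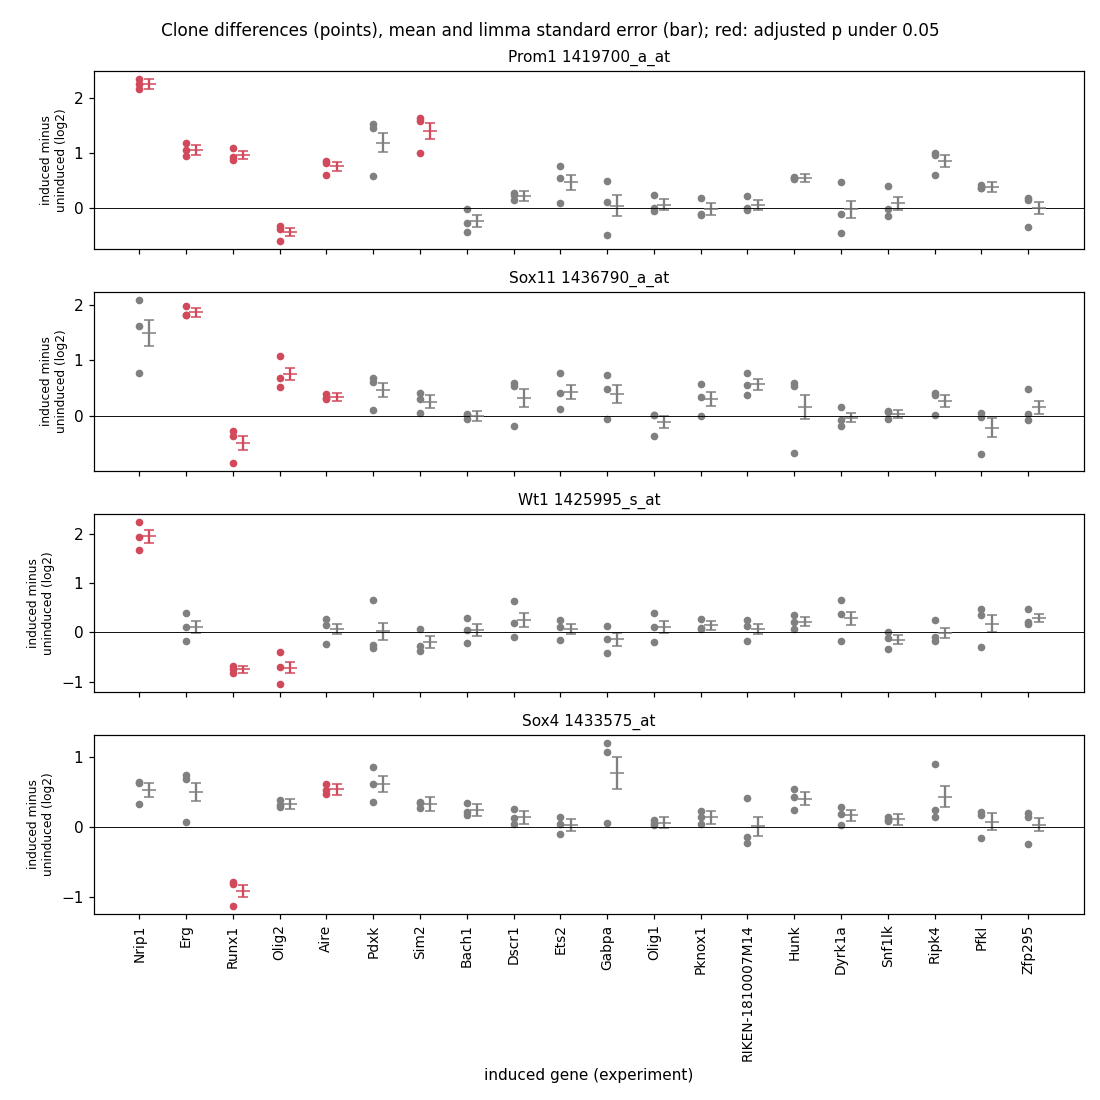
Induced minus uninduced difference (log2, vertical axis) of Prom1, Sox11, Wt1 and Sox4 in each experiment (horizontal axis), with a point per clone, the mean as a bar with its limma standard error, and red where the adjusted p was under 0.05. Wt1 is above 1 in Nrip1 alone, Prom1 is above 0.5 in Nrip1, Erg, Runx1, Aire, Pdxk, Sim2, Hunk and Ripk4, and Sox4 lies clearly below 0 in Runx1 alone.

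The Nrip1 calls rest on few probe sets passing in all, since 0.113% of the array was called, and no member was called without clone 1 or without clone 3 (smallest adjusted p = 0.145 and 0.0526), while 4 of the 5 were kept without clone 2. In Olig2 no member was called without clone 1, and in Pdxk none without clone 1 or clone 3. Erg kept 6 to 8 of its 10 calls and Runx1 5 to 9 of its 9 when a clone was left out. Aire kept 6 of its 7 without clone 1 or clone 2 and 2 without clone 3.

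Whether a response differed between experiments was tested on the 57 clone differences of the 19 experiments on the Mouse430_2 array, each experiment against the mean of the other 18. Nrip1 stood apart at 10 of 31 member probe sets, all higher, against 3.92% of all probe sets called in that contrast. They were Prom1 (1.90 ± 0.15 above the others), Wt1 (1.91 ± 0.17), both Sox3 probe sets (1.80 ± 0.21 and 0.68 ± 0.10), Nes 1449022_at (1.05 ± 0.11) and 5 of Sox11 (0.73 to 1.66). Their adjusted p ran from 1.72e-12 to 0.00461. Erg stood apart at 6 of 31 against 12.3%, with Sox11 1436790_a_at furthest (1.56 ± 0.19, adjusted p = 1.25e-08), then 3 more of Sox11, Sox3 and Prom1. Olig2 was lower than the others at Prom1 (-0.94 ± 0.15) and Wt1 (-0.89 ± 0.17), which is 2 of 31 against 1.68%. Aire was lower at Pax6 1419271_at and 1452526_a_at (-0.67 ± 0.15 and -0.66 ± 0.13), 2 of 31 against 0.745%. Sim2 differed at 3 of 31 against 9.3%, Gabpa at 2 against 9.09% and Pdxk at 1 against 2.9%, shares near those of all probe sets. Bach1 differed at 1, Prom1 (-0.73 ± 0.15), against 0.071%. In the other 11 experiments no member differed, where 0.0552% of all contrasts were called.

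Nrip1 and Erg, the experiments with the highest gains of Sox3 and Sox11, were also compared with each other, a test added after their values were seen. At 4 of 31 probe sets the Nrip1 response was the higher one, against 7.82% of all probe sets called in either direction. Wt1 differed most (1.94 against 0.11, a difference of 1.84 ± 0.23, adjusted p = 5.35e-08), followed by Prom1 (1.20 ± 0.21, adjusted p = 5.16e-05), Nes 1449022_at (0.76 ± 0.16, adjusted p = 0.000534) and Sox11 1453002_at (0.41 ± 0.12, adjusted p = 0.0254). For Sox3 1435192_at the difference between the experiments was 0.83 ± 0.29 and did not pass (adjusted p = 0.0674), nor did Sox11 1436790_a_at, which was nominally higher in Erg (-0.38 ± 0.26, adjusted p = 0.519).

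Induction times differed between experiments. Over the 19 experiment means, the 5 experiments at 39 or 48 hours were set against the 14 at 24 hours, also added after the values were seen. Sox1 1438729_at had a mean of -0.53 at the later times (range -0.69 to -0.40) and -0.08 at 24 hours (range -0.55 to 0.24), a difference of -0.45 ± 0.10 (adjusted p = 0.0122). Pax6 1419271_at had means of -0.44 and -0.07, a difference of -0.37 ± 0.10 (adjusted p = 0.032), and its call was lost without Aire, Hunk, Pdxk or Sim2 (adjusted p = 0.129, 0.0934, 0.0707 and 0.0626). Prom1 had means of 0.95 and 0.28 and did not pass (adjusted p = 0.184). These 2 of 31 member probe sets are a share near the 5.73% of all probe sets called, and the time and the identity of the induced genes cannot be told apart. With Pfkl counted among the later experiments, Sox1 differed by -0.49 and Pax6 by -0.39.

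**Figure D4:**
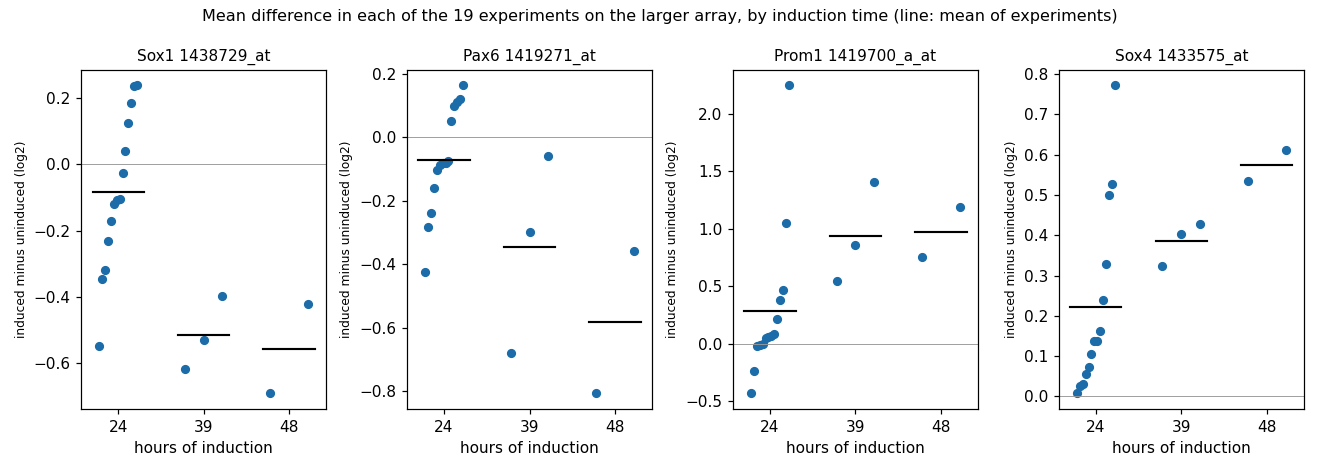
Mean induced minus uninduced difference (log2, vertical axis) of 4 member probe sets in the 19 experiments on the Mouse430_2 array, by hours of induction (horizontal axis), with a point per experiment, spread sideways for legibility, and a line at the mean. All 5 later experiments lie at or below -0.40 for Sox1, and all 5 lie above 0.5 for Prom1, where Nrip1 (2.25) and Erg (1.05) are the high points at 24 hours.

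Uninduced levels differed between experiments as well. These are a description, since the experiments were normalized apart. After every array was set to the mean quantiles of all 114, Wt1 ran from 4.12 ± 0.14 (SD, n = 3) in RIKEN-1810007M14 to 6.17 ± 0.31 in Snf1lk. Sox11 1436790_a_at ran from 6.34 ± 0.29 in RIKEN-1810007M14 to 8.11 ± 0.15 in Hunk. Pax6 1419271_at was lowest in Bach1 (4.70 ± 0.17) and highest in Dyrk1a (6.36 ± 0.04), and Sox4 1433575_at was lowest in Bach1 (8.58 ± 0.35) and highest in Olig2 (9.78 ± 0.15). Sox3 1435192_at ran from 6.11 ± 0.17 to 7.14 ± 0.34, Prom1 from 4.90 ± 0.80 to 6.0 ± 1.11, and Nes 1449022_at from 7.23 ± 0.21 to 7.66 ± 0.24. In the order of the 19 experiments, neighbours overlapped in 17 of 18 cases for Wt1 and Pax6 1419271_at and in all 18 for Sox3, Prom1, Sox4 1433575_at, Sox11 1436790_a_at and Nes 1449022_at, so most neighbours in these orders are not apart beyond their spread. The lowest and the highest experiment did not overlap at these probe sets, except for Prom1, where they did. These ends were picked as the extremes of 19 experiments, which favours a gap, so no difference is read from it. As deposited, the distance between the lowest and highest experiment was 2.39 for Wt1 against 2.05 on the common quantiles, and 0.79 against 0.43 for Nes. Levels of different probe sets are not compared.

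The members also varied together in part. Over the 57 clone differences, taken at the probe set of highest level of each gene, Pearson's r was 0.73 between Sox3 and Wt1, 0.67 between Sox3 and Sox11 and 0.66 between Sox11 and Nes, while Pax3 stayed within -0.21 and 0.16 with every other member. The 57 differences come from 19 experiments of 3 clones each, and these values are a description. Without Nrip1 and Erg, over 51 clone differences, the same 3 values were 0.49, 0.40 and 0.40. Several other pairs lost their correlation or changed sign. Sox3 with Nes went from 0.60 to 0.06, Prom1 with Wt1 from 0.50 to -0.01 and Nes with Wt1 from 0.49 to -0.28. Sox4 with Prom1 went from 0.42 to 0.36. Likeness to other genes was taken over all 57 clone differences and was not worked out without Nrip1 and Erg. Its values are the highest picked from all genes, which favours a high r. Among all other genes the most alike to Sox3 were Igsf9 (r = 0.78), Slc5a5 (0.77) and Mrc2 (0.76), and to Sox11 Hivep2 (0.82), Rcbtb2 (0.79) and Dmkn (0.77). Prom1 was most like Card19 (0.84), Hes6 (0.80) and Tgfbi (0.79), Wt1 like Ccno (0.81), Nav2 (0.77) and Gap43 (0.76), and Nes like Samd4 (0.84), Pxdn (0.83) and Gbp2b (0.82). For Sox4 they were Pnrc1, Gtpbp2 and Cldn6 (0.75, 0.71 and 0.68), for Pax6 Stc2, Sbds and Gdf3 (0.67, 0.63 and 0.63), for Pax3 Clec2l, Appbp2os and Trpc7 (0.74, 0.71 and 0.71), and for Sox1 1422205_at no gene was above 0.48.

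Other genes of neural progenitors were taken as a list of 60, of which 55 were measured on the Mouse430_2 array and 49 on the Mouse430A_2 array, each by its probe set of highest level. In Nrip1 limma called none of the 55, where 0.198% of all genes were called higher and 0.0275% lower. At an unadjusted p under 0.05 there were 15 of the 55, beside 9.84% of all probe sets. In Erg 3 rose against 6.79% of all genes, and 7 fell against 9.28%. Those higher were Dll1, a Notch ligand (0.89 ± 0.08), the receptor Notch1 (0.59 ± 0.09) and Vim, the filament protein vimentin (0.68 ± 0.09). The greatest falls were those of the cell adhesion molecule Ncam1 (-1.14 ± 0.09), the zinc finger factor Zic5 (-1.13 ± 0.08), Pax8 (-0.87 ± 0.09), Otx2 (-0.69 ± 0.18), Sox2 (-0.65 ± 0.12) and Nkx6-2 (-0.60 ± 0.09). In Runx1 7 of 49 rose against 9.99% and 7 fell against 8.5%. The homeobox gene Gbx2 had the greatest fall (-3.01 ± 0.06), then Pou3f1 (-1.73 ± 0.18), Cdh2, the neural cadherin (-0.95 ± 0.10), and Pax8 (-0.66 ± 0.10). Nkx6-2 (1.10 ± 0.07), Ncam1 (0.82 ± 0.07), Msi1 (0.80 ± 0.15) and Dll1 (0.69 ± 0.13) led the rises. The median over the list was 0.05 in Nrip1, 0.02 in Erg and -0.08 in Runx1, beside 0.00, -0.02 and -0.02 over all genes. Symbols of the list that the annotation used here lacks were not analysed.

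A second list, of 20 genes around Wt1 in the kidney and gonad, had 16 measured. None was called in Nrip1 by limma, with 5 at an unadjusted p under 0.05, beside 9.84% of all probe sets. In Erg 3 rose against 6.79% of all genes, Podxl, a podocyte membrane protein (1.86 ± 0.12), Six2 (0.53 ± 0.09) and Eya1 (0.36 ± 0.08), and 2 fell against 9.28%, Pax8 and Sall1 (-0.83 ± 0.15). In Runx1 5 fell against 8.5%, Sall1 (-0.83 ± 0.06), Pax8, Podxl (-0.41 ± 0.08), Eya1 (-0.36 ± 0.08) and Six2 (-0.32 ± 0.08), and none rose by limma, where 9.99% of all genes did. In that experiment 7 of the 16 had an unadjusted p under 0.05, beside 32.2% of all probe sets.

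Markers of the starting cells and of other cell types also included called genes in these 3 experiments, to be read against 0.198% of all genes called higher and 0.0275% lower in Nrip1, 6.79% and 9.28% in Erg, and 9.99% and 8.5% in Runx1. For the marker counts at an unadjusted p under 0.05, the share of all probe sets was 9.84% in Nrip1 and 32.2% in Runx1. Of 13 mES markers none was called in Nrip1 by limma, with 7 at an unadjusted p under 0.05 and a median of -0.39, and their mean level was 11.57 to 11.74 on the uninduced arrays and 10.90 to 11.51 on the induced ones. In Erg 8 of 13 fell, the orphan receptor Nr0b1 (-2.03 ± 0.08), Nanog (-1.13 ± 0.10), Sox2, Klf2 (-0.60 ± 0.09), Fgf4 (-0.55 ± 0.08), Zfp42 (-0.52 ± 0.10), Tdgf1 (-0.47 ± 0.11) and Esrrb (-0.34 ± 0.09), and the mean level went from 11.74 to 11.87 down to 11.23 to 11.41. In Runx1 9 of 13 fell, with the 8 greatest falls in Nr0b1 (-1.22 ± 0.08), Tdgf1 (-0.91 ± 0.07), Fgf4 (-0.90 ± 0.08), Tbx3 (-0.84 ± 0.07), Klf4 (-0.82 ± 0.07), Utf1 (-0.68 ± 0.07), Nanog (-0.62 ± 0.09) and Zfp42 (-0.42 ± 0.06).

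Of 10 neuron markers 1 rose in Nrip1, Gap43 (1.39 ± 0.14, adjusted p = 0.0389), a growth cone protein, and the mean level of the list was 5.85 to 6.19 before and 5.96 to 6.24 after. In Erg 1 rose, Gap43 (0.52 ± 0.10), and 1 fell, Tubb3 (-0.36 ± 0.09). In Runx1 Gap43 fell by 2.19 ± 0.10 and Elavl4 fell by 0.54 ± 0.09, while Tubb3 rose by 0.45 ± 0.07. Of 8 trophoblast markers 1 rose in Nrip1, Ascl2 (1.35 ± 0.09). In Erg Ascl2 rose (1.16 ± 0.12) and Tfap2c fell (-0.55 ± 0.14), and in Runx1 Eomes (1.74 ± 0.08), Krt7 (1.65 ± 0.12) and Tfap2c (0.79 ± 0.09) rose. Of 5 germ cell markers Stra8, a gene of meiotic entry, fell in Nrip1 (-1.05 ± 0.10, adjusted p = 0.0344), where the median of the list was -0.30 and its mean level went from 7.60 to 8.19 down to 6.99 to 7.56. Stra8 also fell in Erg (-0.45 ± 0.08), where Ddx4 rose (0.39 ± 0.10), and limma called none of the 4 measured in Runx1, with 1 at an unadjusted p under 0.05. Of 6 mesoderm markers Kdr, the VEGF receptor, rose in Erg (1.48 ± 0.14) and fell in Runx1 (-0.41 ± 0.07), and none was called in Nrip1 by limma, with 0 at an unadjusted p under 0.05. Of 9 primitive endoderm markers Cubn rose in Erg (0.69 ± 0.11) and fell in Runx1 (-0.31 ± 0.07), Sox7 fell in Runx1 (-0.78 ± 0.07), and none was called in Nrip1 by limma, with 2 at an unadjusted p under 0.05. Fibroblast markers were called at 1 of 7 in Erg, Thy1 (2.11 ± 0.11), at 1 of 7 in Runx1, where Lum fell (-0.33 ± 0.07), and at 0 of 7 in Nrip1 by limma, with 1 at an unadjusted p under 0.05. In bulk RNA fewer cells of a type and less RNA per cell cannot be told apart, and the part of these shifts in the values of the 9 genes was not tested.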

How the data were processed

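Values were taken from the tables that the authors deposited, whose log2 intensities come from the RMA method (robust multi-array average) in the affy package, with versions not given in the sources used here. By the array medians each experiment was normalized on its own, and RMA gives no detection call. In the platform annotation 34958 of 45101 Mouse430_2 probe sets carry 1 gene symbol, 932 carry several and 9211 carry none. For Mouse430A_2 these numbers are 20393, 691 and 1606 of 22690. The Sim2 arrays have values for 45100. Arrays were grouped by the induced gene and state in their labels and paired by replicate number, since each clone was profiled in both states. After the state means were removed, the correlation within a pair was above 0.1 in 54 of 60 pairs (median r = 0.376). No 2 arrays held identical values. For each experiment limma 3.58.1 (R 4.3.3) fitted the state with the clone as a block, with adjustment over all probe sets and a threshold of 0.05. Responses were compared by limma on clone differences. With the clone as a block, a p-value sets the mean induced minus uninduced difference against a variance. That variance is how the difference varies among these clones, moderated over all probe sets, not how far their levels differ. Nothing says that clones were cultured on separate occasions, and 3 clones limit the precision.

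The members and lists were chosen with earlier results of these data known. Every member probe set was examined in every experiment. From the other lists the called members were named, at most 8 per list and experiment, in Nrip1, Erg and Runx1, the latter 2 having the most member calls, and Notch1 in Erg was added after its value was seen. Genes most alike to a member were the 3 of highest r. Fits were tested on simulated data. Alternatives were a fit without the block, 1 fit over all Mouse430_2 arrays, a second quantile normalization, a filter on dim probe sets, a trended robust prior, the methods' t-test, a Cyber-t kind of test (regularized variance, prior weight 10), a threshold of 0.01 and each clone left out.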

Additional observations from a re-analysis of the deposited data

Results flagged for a closer look

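At 27 values the response of an experiment differed from the mean response of the other 18 experiments on the Mouse430_2 array, by limma on the 57 clone differences. The values below are these distances in log2 units.

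In Nrip1 10 probe sets were higher than in the other experiments: Wt1 by 1.91, Prom1 by 1.90, Sox3 1435192_at by 1.80 and 1450485_at by 0.68, and Nes 1449022_at by 1.05. The 5 of Sox11 were higher by 1.66 (1453125_at), 1.16 (1436790_a_at), 0.91 (1453002_at), 0.81 (1429051_s_at) and 0.73 (1429372_at). In Erg the distance was 0.93 for Sox3 1435192_at and 0.63 for Prom1, and for Sox11 it was 1.56 at 1436790_a_at, 1.03 at 1453125_at, 0.65 at 1429372_at and 0.48 at 1453002_at. Olig2 stood lower at Prom1 (-0.94) and Wt1 (-0.89). Aire stood lower at Pax6 1419271_at (-0.67) and 1452526_a_at (-0.66).

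In Sim2 Prom1 was 1.00 higher, Sox11 1431225_at was 0.40 higher and Sox11 1453002_at was 0.32 higher than in the other experiments. Prom1 was 0.77 higher in Pdxk. In Gabpa Sox4 1433575_at was 0.52 higher and 1419155_a_at 0.43 higher, where clone 2 moved least at both. Prom1 was lower in Bach1 (-0.73), although its change there did not pass the test within the experiment.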

How the results depend on the processing

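No called difference changed sign under any alternative run. The 38 member calls became 18 without the replicate block, of which 17 were shared, 17 at an adjusted p under 0.01, and 22 to 49 when 1 clone was left out. The methods' t-test with Benjamini-Hochberg adjustment called 0, with 68 at an unadjusted p under 0.05. The Cyber-t kind of test called 40, a trended robust prior 49, a second quantile normalization 37 and a filter on dim probe sets 38. One fit over all Mouse430_2 arrays called 52 where the separate fits called 29, and 27 were shared. The 27 responses that differed from the other experiments became 46 with array weights and 17 to 28 when 1 clone was left out, and 35 against the mean of the silent experiments. The 4 differences between Nrip1 and Erg became 3 to 5. For later against 24 hours the 2 calls became 1 without Aire, 1 without Hunk, 1 without Pdxk and 1 without Sim2. The share of all probe sets called was not worked out for these alternatives, apart from the values given above for Gabpa, Hunk and Ripk4. A higher or lower count here is therefore not read as a result about the members. The alternatives that exchange the reference, the induction times, the later experiments or the quantiles of uninduced levels, and the correlations without Nrip1 and Erg, were chosen after seeing the data. The cause of these shifts was not tested. RMA values carry no background call, so a change at a dim probe set can be missed, and 3 clones limit the precision.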

Other observations

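Some clones of one experiment differed at a member before induction and kept that difference after it. At Pax6 1419271_at the Zfp295 clones read 5.23, 5.54 and 8.20 uninduced and 5.28, 5.47 and 7.98 induced, so that clone 3 stood apart in both states. The Olig2 clones read 5.14, 5.58 and 6.77 and then 5.31, 5.58 and 6.94 at this probe set. Sox1 1438729_at in Dscr1 was 3.73, 5.09 and 6.71 before and 3.91, 4.80 and 6.74 after. Prom1 in Olig1 was 4.23, 5.68 and 4.16 before and 4.17, 5.69 and 4.40 after, and in Snf1lk 4.95, 6.71 and 6.78 before and 5.35, 6.70 and 6.64 after. Groups of 3 were not tested for outlying samples, and these clones were picked after their values were seen.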
